A study of Mus musculus with 1 sample.

Results

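The proteasome genes of mouse alveolar macrophages (AMs) were examined in 1 single-cell RNA-seq library. They were taken as the genes named Psma, Psmb, Psmc, Psmd or Psme with a number, and 44 of the 11918 genes listed met that rule. Of these, 43 encode proteasome subunits, activators or assembly factors, and Psmc3ip, a meiotic recombination factor, does not. Psmb11, the thymus-specific catalytic subunit, is not among the genes listed.

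The library held AMs sorted as CD45+CD11c+SiglecF+ cells from the lung of 1 adult wild-type Hdac3 fl/fl mouse without Cre, with a labelled age of 8 to 12 weeks, whose FVB/NJ strain had been backcrossed to C57BL/6. The floxed alleles are shared by the wild-type and the knockout arm of the study, and the knockout library was not analysed here. A total of 5000 cells were loaded on the 10x Genomics 3′ platform and 2055 cell barcodes are in the files, with 7222978 unique molecular identifiers (UMIs, each marking 1 captured transcript) and 1143 to 8603 UMIs per cell (median 3278). With 1 library from 1 mouse there is no replicate and no test between mice, so the 95% intervals given here, exact Poisson for levels, exact binomial (Clopper-Pearson) for shares and exact conditional for ratios, cover counting error only. All 11 AM markers examined were detected, led by Chil3 at 136 UMIs per 10000, and the summed marker level had a median of 215 UMIs per 10000 over cells. Markers of other cell types were sparse, with 36 UMIs for dendritic cells, 93 for monocytes or interstitial macrophages and 345 for granulocytes. The B or plasma cell list had 1038 UMIs, of which 940 were Jchain in 1 cell, and the T and NK cell markers are not among the genes listed. The epithelial list had 2527 UMIs, most of them Epcam (3.02 UMIs per 10000).

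The proteasome degrades proteins tagged with ubiquitin. Its 20S core is a barrel of alpha and beta rings, and the beta subunits Psmb5, Psmb6 and Psmb7 carry the chymotrypsin-like, caspase-like and trypsin-like active sites. The 19S particle, made of a base that unfolds substrates and a lid that removes ubiquitin, caps the core. In cells exposed to interferon-gamma, Psmb8, Psmb9 and Psmb10 replace Psmb5, Psmb6 and Psmb7 in newly made cores to form the immunoproteasome, and Psme1 and Psme2 form the PA28 activator, both of which shape the peptides shown on MHC class I.

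The sequence before the start of the catalytic genes is shown first, because these genes carry the main contrast of the data. Sequences come from RefSeq on GRCm38.p6, on the gene's strand, and start 100 bases before the RefSeq transcript start, cut where an exon of the gene in GENCODE M21 begins: 73 bases of Psmb5 at chr14:54618023-54618095 (minus strand), 100 bases of Psmb6 at chr11:70525257-70525356 (plus) and 48 bases of Psmb10 at chr8:105938445-105938492 (minus). Capitals mark matches on either strand to TGACNNNGC, the core of the antioxidant response element. No match to the interferon-stimulated response element, searched as a pair of GAAA blocks with 2 bases of any kind between them, falls in them.
Psmb5: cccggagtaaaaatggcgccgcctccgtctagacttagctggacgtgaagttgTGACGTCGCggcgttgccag
Psmb6: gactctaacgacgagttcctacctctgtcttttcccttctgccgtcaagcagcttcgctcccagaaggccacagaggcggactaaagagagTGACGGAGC
Psmb10: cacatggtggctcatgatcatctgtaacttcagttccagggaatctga
Psmb5 and Psmb6 each held 1 antioxidant core, starting 47 and 9 bases before the RefSeq start. For Psmb8 and Psmb9 all 100 bases lie in an exon of a GENCODE transcript that starts further upstream, as do 52 bases for Psmb10 and 27 for Psmb5, so the RefSeq window of these genes does not cover the sequence before every annotated start. Over the whole window (250 bases before the RefSeq start and 50 after), 6 of 37 proteasome genes with an entry held the antioxidant core (16.2%, against 13.99% of 27025 genes) and 4 held the interferon element (10.8%, against 3.99%), and the 3 immunosubunit genes held neither. A match is a description of these letters and not of a bound site, and no match says only that they are not in this window. Psmb9 and Psmb8 lie in the MHC region of chromosome 17 (GENCODE M21 on GRCm38), where Psmb9 (34181987 to 34187764, minus strand) overlaps Tap1 by 212 bases and Psmb8 (34197721 to 34201454, plus strand) starts 495 bases after Tap1. Psmb10 lies on chromosome 8 (105935735 to 105938444), outside the MHC.

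Proteasome transcripts were present in nearly every AM. The 44 genes together made up 54.5 UMIs per 10000 (54.0 to 55.1), 2054 of 2055 cells had at least 1 such UMI, and the median cell had 16. Of the 44 genes, 42 lay above the median of all genes listed (107 UMIs), and the exceptions were Psma8 (21 UMIs), the testis form of an alpha subunit, and Psmc3ip (16 UMIs). A 3′ UMI assay tags each transcript once whatever its length, so levels were compared between genes without division by length.

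**Figure D1:**
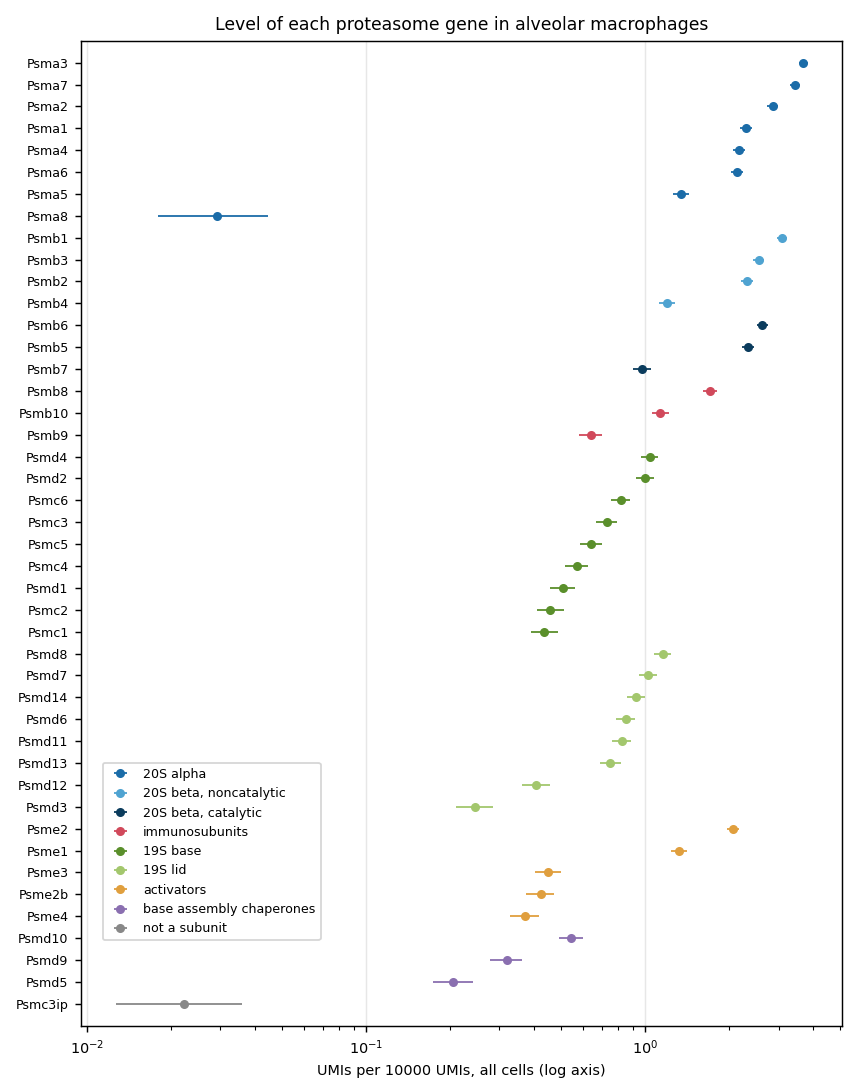
Level of each of the 44 genes over all 2055 cells, in UMIs per 10000 UMIs on a log axis, coloured by subunit group; bars are exact 95% Poisson intervals (counting error only). Core genes other than Psma8 sit between 0.973 and 3.68, genes of the 19S particle between 0.245 and 1.15, and Psmb8 leads the 3 immunosubunits.

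Genes of the 20S core were the most abundant group. Psma3, an alpha ring subunit, had the highest level of all 44 genes at 3.68 UMIs per 10000 (3.54 to 3.82) and was seen in 65.2% of cells (63.1% to 67.2%). The other alpha genes ran from Psma7 at 3.44 down to Psma5 at 1.34, with Psma8 at 0.0291. Among the noncatalytic beta genes, Psmb1 was highest (3.09, 2.96 to 3.22) and Psmb4 lowest (1.19, 1.12 to 1.28). The core is assembled with 1 copy of each subunit in each ring, and the transcripts of the 14 constitutive core genes other than Psma8 spanned 0.973 to 3.68, with a median of 2.32 UMIs per 10000.

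The 17 genes of the 19S particle lay lower, with a median of 0.749 UMIs per 10000, so that the median core gene was 3.10-fold above the median 19S gene. Only 4 of the 17 exceeded Psmb7, the lowest core gene apart from Psma8. In the base, Psmd4, a ubiquitin receptor, was highest (1.04, 0.964 to 1.11) and the ATPase Psmc1 lowest (0.435, 0.388 to 0.486). In the lid, Psmd8 was highest (1.15, 1.08 to 1.23) and Psmd3 lowest (0.245, 0.210 to 0.284). The lid deubiquitinase Psmd14 was at 0.925 (0.856 to 0.998). The 3 chaperones that assemble the base were lower still, from Psmd10 at 0.541 (0.489 to 0.598) to Psmd5 at 0.205 (0.173 to 0.241).

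Of the activators, the PA28 genes stood well above the others. Psme2 (PA28 beta) was at 2.06 UMIs per 10000 (1.96 to 2.17) and Psme1 (PA28 alpha) at 1.32 (1.24 to 1.40), against 0.449 (0.401 to 0.5002) for Psme3, the nuclear PA28 gamma, and 0.370 (0.327 to 0.417) for Psme4, which encodes PA200. Psme2b was at 0.421 (0.375 to 0.471), but when transcript ends (300 bases) were compared in windows of 98 bases, the read length, 61.1% of windows of Psme2b were also in Psme2 and 35.9% of those of Psme2 were also in Psme2b, so the split of reads between this pair is uncertain. Of the 44 genes, 34 shared no such window with another gene, and the other genes with over 20% shared were Psmd1 (66.0%), Psma3 (25.6%) and Psma5 (20.2%), each with a gene that is not listed. Psmb5 shared 18.5% with a gene that is not listed, while the other catalytic genes shared none. The effect of this on the level of Psmb5 was not tested.

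All 3 immunosubunits were expressed in these AMs. Psmb8 was at 1.71 UMIs per 10000 (1.61 to 1.81) and seen in 42.2% of cells (40.1% to 44.4%), Psmb10 was at 1.13 (1.06 to 1.21) in 30.5% of cells, and Psmb9 was at 0.637 (0.580 to 0.698) in 18.8% of cells (17.2% to 20.6%). The constitutive partners were at 2.33 (2.22 to 2.44) for Psmb5, 2.62 (2.51 to 2.74) for Psmb6 and 0.973 (0.903 to 1.05) for Psmb7, seen in 50.8%, 56.1% and 27.2% of cells. The 3 pairs differed in balance. For the chymotrypsin-like site, Psmb8 gave 42.3% (40.5% to 44.1%) of the UMIs of Psmb8 and Psmb5. For the caspase-like site, Psmb9 gave 19.5% (17.9% to 21.2%) of those of Psmb9 and Psmb6. For the trypsin-like site, Psmb10 exceeded its partner, with 53.8% (51.2% to 56.3%) of the UMIs of Psmb10 and Psmb7. The intervals of the 3 shares do not overlap.

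Over the 6 catalytic genes together, 2511 of 6790 UMIs were immunosubunits, a share of 37.0% (35.8% to 38.1%). That share did not follow cell depth, being 39.6% (36.2% to 43.1%) in the quartile of cells with the fewest UMIs and 37.1% (35.3% to 38.9%) in the quartile with the most. UMIs of both kinds were found in 1087 cells (52.9%), of the constitutive kind only in 526, of the immunosubunits only in 228 and of neither in 214. Among the 801 cells with at least 4 catalytic UMIs, 83 (10.4%) had no immunosubunit UMI and 9 (1.12%) had no constitutive one, and the squared deviation of the cells' shares from 37.0% averaged 1.14 times the binomial value. At this depth most AMs in which the 6 genes could be counted thus held transcripts of both kinds, and cells with a single kind cannot be told apart from cells in which the other was missed.

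A few cells departed from this balance. The interferon list (23 of 24 genes listed, no proteasome gene among them) had 2201 UMIs, and 14 cells (0.681%) with 10 or more of these UMIs each, a limit chosen after the values were seen, held 14.7% of them. In these 14 cells the immunosubunits stood at 12.2 UMIs per 10000 (9.75 to 15.1), against 3.39 (3.26 to 3.53) in the 2041 other cells, a ratio of 3.60 (2.86 to 4.47). Their constitutive partners were at 5.89 (4.23 to 7.99) against 5.92 (5.75 to 6.11), a ratio of 0.994 (0.712 to 1.35). The immunosubunit share of catalytic UMIs was therefore 67.5% (58.5% to 75.5%, 85 of 126 UMIs) in the 14 cells and 36.4% (35.2% to 37.6%) in the others.

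All 3 immunosubunits and both PA28 genes were higher. Psmb9 showed the largest ratio at 5.41 (3.39 to 8.22), with 23 UMIs in 8 of the 14 cells. Of these 23 UMIs, 15 were in the 4 cells with 30 or more interferon-list UMIs, and the interval overlaps that of Psmb8. Psmb8 was 3.62-fold higher (2.60 to 4.93, 42 UMIs in 12 cells) and Psmb10 2.57-fold higher (1.56 to 4.00, 20 UMIs in 9 cells). Psme1 was 2.54-fold higher (1.60 to 3.84) and Psme2 2.83-fold higher (2.01 to 3.88), and Psme2b, which shares sequence with Psme2, had a ratio of 2.42 (0.965 to 5.05) on 7 UMIs. By contrast the 19S genes had a summed ratio of 0.965 (0.768 to 1.20), Psmb5 one of 1.05 (0.610 to 1.69), Psmb6 one of 0.875 (0.499 to 1.42) and Psmb7 one of 1.18 (0.508 to 2.34). The 8 alpha genes lay between, at 1.34 (1.14 to 1.56).

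Over genes with at least 500 UMIs, 1.2% of 2086 were higher by at least 2.5-fold in the 14 cells (a fold also chosen after seeing the values), and 4 of the 28 proteasome genes with that many UMIs were: Psmb8, Psmb10, Psme1 and Psme2. At 1.5-fold, 8 of the 28 were higher and 2 lower (Psmc6 and Psmd2), against 7.19% and 26.1% of all genes. The 4 further genes higher by that fold were the core genes Psma3, Psma5 and Psma7 and the lid gene Psmd13, and the constitutive core as a whole had a ratio of 1.23 (1.09 to 1.38). The median ratio was 1.14 over the 28 and 0.871 over all genes. Psmb9, with 460 UMIs, did not enter these counts.

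**Figure D2:**
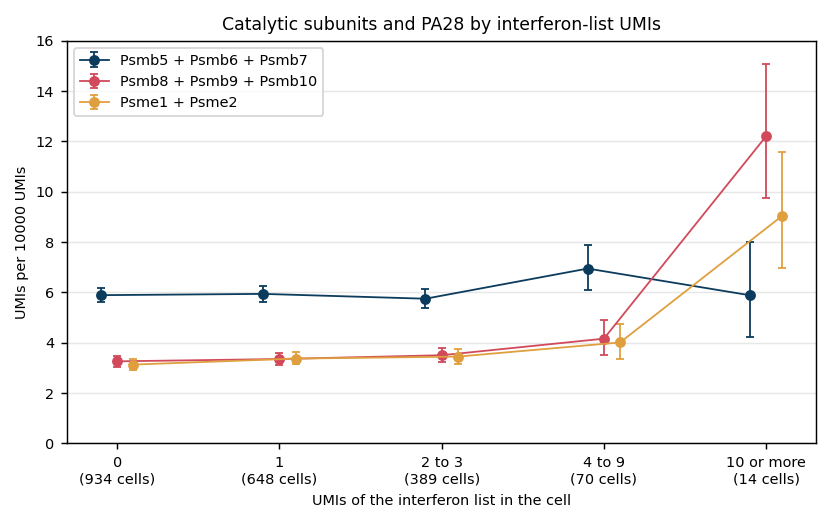
UMIs per 10000 of Psmb5 + Psmb6 + Psmb7, of Psmb8 + Psmb9 + Psmb10 and of Psme1 + Psme2, in cells grouped by their UMIs of the interferon list; bars are exact 95% Poisson intervals. The immunosubunits and the PA28 genes stay between 3.13 and 4.16 up to 9 interferon-list UMIs and stand at 12.2 and 9.05 in the 14 cells with 10 or more, while the constitutive catalytic genes are at 5.89 there.

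Below that limit the groups moved less. The largest change was in the 70 cells with 4 to 9 list UMIs, set against all 2041 cells under the limit. There the immunosubunits had a ratio of 1.23 (1.03 to 1.46) and Psme1 and Psme2 one of 1.21 (1.01 to 1.44). The constitutive catalytic genes were higher as well, at 1.17 (1.02 to 1.34), and so was the whole family (1.13, 1.08 to 1.18). These 70 cells were deeper (median 4782 UMIs against 3275). Within quartiles of UMIs per cell the 4 ratios were, in the same order, 1.18, 1.15, 1.11 and 1.07. Immunosubunits were at 3.26 (3.05 to 3.48) in the 934 cells with no interferon-list UMI, 3.35 (3.12 to 3.60) in the 648 with 1, 3.51 (3.23 to 3.80) in the 389 with 2 to 3 and 4.16 (3.50 to 4.92) in the 70 with 4 to 9. The 4 cells with 30 or more list UMIs had 8, 8, 8 and 13 immunosubunit UMIs and 16, 10, 8 and 8 UMIs of Psme1 and Psme2. Without these 4 the remaining 10 cells had an immunosubunit ratio of 3.18 (2.34 to 4.23) but a ratio of 1.42 (0.877 to 2.17) for Psme1 and Psme2. The PA28 difference thus rested largely on 4 cells and the difference of the summed immunosubunits did not.

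Other features moved with the 14 cells. They were deeper (median 5370 UMIs against 3275), and within quartiles of UMIs per cell the immunosubunit ratio was 3.42 and that of Psme1 and Psme2 2.60. Their median mitochondrial share was 2.20% against 3.21%, and the chemokine and immediate-early list had a ratio of 1.82 (1.69 to 1.95). The part of these in the ratios was not tested. Their interferon list was led by Cxcl9 (59 UMIs in 6 cells), Ifitm3 (46 in 7), Isg15 (35 in 8) and Cxcl10 (35 in 5), and B2m, the light chain of MHC class I, was 2.27-fold higher (2.07 to 2.48). The AM marker list had a ratio of 0.944 (0.896 to 0.993), but 3 of the 14 cells lay below the 5th percentile of all cells for these markers. Leaving those 3 out gave an immunosubunit ratio of 3.32 (2.57 to 4.23). Dendritic cell markers had 4 UMIs in 1 of the 14 cells and granulocyte markers 27 UMIs in 3, and the ratio was 3.31 (2.53 to 4.26) without the cells holding 3 or more of either. In 8 of the 14 cells no MHC class II UMI was found, and those 8 gave 2.93 (2.06 to 4.05).

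Correlation between subunits was examined on residuals, the difference of a cell's UMIs of a gene from the number its total predicts, divided by the square root of that number. Over the 28 genes with at least 500 UMIs (378 pairs, 2055 cells of 1 library), the median r was 0.026, with 5% of pairs below -0.025 and 5% above 0.083. Over all 2176741 pairs of the 2087 genes with that many UMIs the median was -0.00011, with 5% below -0.046 and 5% above 0.048. The values are low throughout, and no single pair is read as a finding. Most cells had 0 to 2 UMIs of each gene, and the part of this in the low values was not tested.

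Pairs within the 20S core had a median of 0.057, with 89 of 91 pairs above 0. The 4 pairs of Psme1 or Psme2 with Psmb8 or Psmb10 had a median of 0.070, all above 0. Psma1 and Psma2 had the highest value of all pairs (0.132), and the constitutive partners Psmb5 and Psmb6 were at 0.098. Pairs of a core gene with an immunosubunit had a median of 0.042, and pairs of a core gene with Psme1 or Psme2 0.039. Within the 19S particle the median was 0.0045, with 24 of 45 pairs above 0. Genes of the 19S particle have fewer UMIs than core genes (above), and the part of this in their lower r was not tested. Among the immunosubunits (Psmb9 with 460 UMIs is under the minimum), Psmb8 with Psmb9 was at 0.066, Psmb8 with Psmb10 at 0.049 and Psmb9 with Psmb10 at 0.037, and each immunosubunit with its constitutive partner was at 0.027 (Psmb8 with Psmb5), 0.046 (Psmb9 with Psmb6) and 0.027 (Psmb10 with Psmb7).

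**Figure D3:**
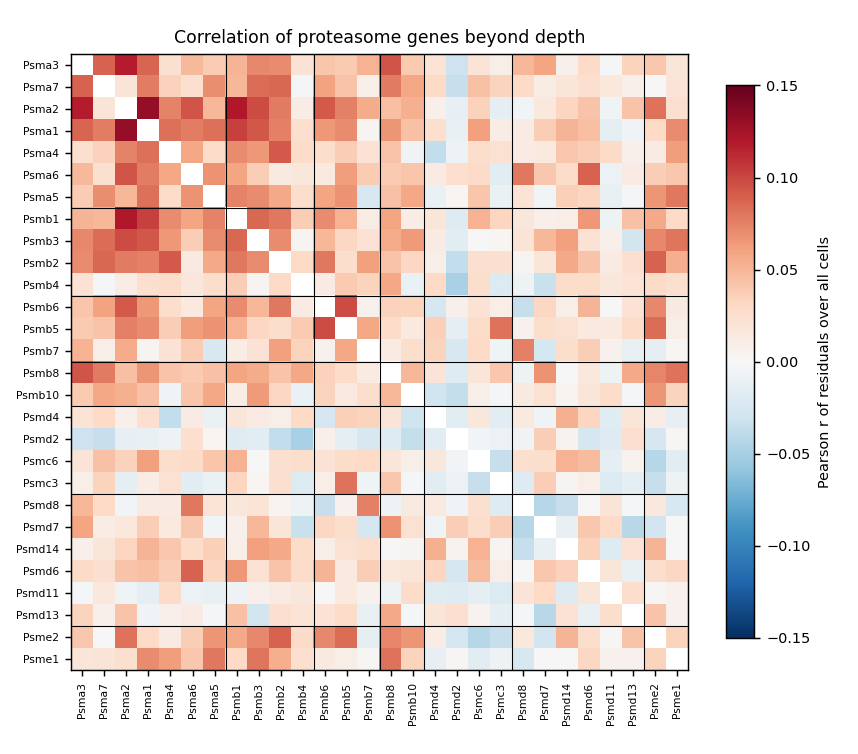
Pearson r of the residuals of each pair of the 28 proteasome genes with at least 500 UMIs, over 2055 cells, ordered by subunit group (black lines); red is positive and blue negative, and the diagonal is blank. The block of core genes at the upper left is mostly red, with a median of 0.057, the 4 pairs of Psme1 or Psme2 with Psmb8 or Psmb10 have a median of 0.070, and the block of 19S genes is close to white, with a median of 0.0045.

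Summing genes before taking residuals gave larger values. The constitutive core as a whole had r = 0.180 with the 19S particle, 0.179 with the immunosubunits and 0.168 with Psme1 and Psme2, while the 19S particle had 0.073 with the immunosubunits and 0.012 with Psme1 and Psme2. The spread of the summed residual was 1.77 times the Poisson value for the core, 1.09 for the 19S particle, 1.15 for the immunosubunits and 1.08 for Psme1 and Psme2. Part of this moved with depth. In the quartile of cells with at most 2410 UMIs the proteasome genes made up 45.9 UMIs per 10000, against 60.1 in the quartile with at least 4376, while Malat1, a nuclear RNA, went from 226 to 140 and the mitochondrial genes from 480 to 351. Of the 28 genes, 26 (92.9%) were higher in the deepest quartile than in the shallowest, with a median ratio of 1.32, against 47.1% of all 2087 genes and a median of 0.984. After a further fit of the residuals on depth, the median r over the 378 pairs was 0.021 and the summed values were 0.151 for core with 19S and 0.166 for core with immunosubunits.

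The immunosubunits and the PA28 genes correlated with the interferon list, and less so without the 14 cells. Those cells were chosen as the highest on that list, so leaving them out narrows its range and can by itself lower r. Psme1 and Psme2 had r = 0.224 with the list over 2055 cells and 0.038 without the 14 cells. Summed immunosubunits had r = 0.226 with the interferon list, 0.175 with the MHC class I list and 0.159 with Psme1 and Psme2 over 2055 cells, and 0.047, 0.109 and 0.111 over the 2041 cells without them. The constitutive core had 0.057 with the interferon list. Among genes outside the family, the 5 whose residuals were most like the summed family were Cd9 (r = 0.379), a tetraspanin, Ubb (0.363), a polyubiquitin gene, B2m (0.356), Fcer1g (0.331), an Fc receptor chain, and Prdx1 (0.326), a peroxiredoxin, of 2059 ranked. For the immunosubunits they were B2m (0.191), Cst3 (0.178), Ubb (0.172), AW112010 (0.158) and Cd52 (0.149). All points share 1 library, and abundant genes reach higher r.

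MHC class II was detected in 596 of the 2055 AMs (29.0%) by at least 1 UMI of H2-Aa, H2-Ab1 or H2-Eb1. Proteasome genes as a whole were at 56.4 UMIs per 10000 in these cells and 53.6 in the 1459 without, a ratio of 1.05 (1.03 to 1.07). The cells with class II UMIs were deeper (median 3773 UMIs against 3103), and within quartiles of UMIs per cell the ratio was 1.02. Immunosubunits had a ratio of 1.09 (1.00 to 1.18), which was 1.05 within quartiles, and their share of catalytic UMIs was 36.9% (35.0% to 38.9%) in cells with class II UMIs and 37.0% (35.6% to 38.4%) in cells without. Psme1 and Psme2 differed more, at 3.82 against 3.17, a ratio of 1.20 (1.11 to 1.31) and of 1.17 within quartiles. The 19S particle had a ratio of 0.993 (0.9499 to 1.04) and the constitutive core one of 1.06 (1.03 to 1.08), or 1.01 within quartiles.

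Of single genes, Psme2b had the highest ratio of those named here at 1.44 (1.13 to 1.82). Psme2 had 1.27 (1.14 to 1.41), Psmb9 1.27 (1.05 to 1.54) and Psmb5 1.18 (1.07 to 1.31), while Psmb8 had 1.03 (0.911 to 1.16) and Psmb10 1.08 (0.932 to 1.251). Psme4 was at 0.756 (0.568 to 0.997) and Psmc1 at 0.763 (0.587 to 0.983). Without the 14 interferon-rich cells the interval of Psmb9 included 1 (1.20, 0.983 to 1.47). None of the 28 genes with at least 500 UMIs differed by 1.5-fold, and over all genes 0.144% of 2085 were higher and 0% lower by that fold. The median ratio was 1.04 over the 28 and 0.989 over all genes.

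Immunosubunit transcripts were higher in the cells with the most class II UMIs, by an amount that shrank without the 14 interferon-rich cells. The immunosubunits stood at 3.38 UMIs per 10000 (3.22 to 3.55) with no class II UMI, 3.37 (3.04 to 3.72) with 1, 3.44 (2.81 to 4.17) with 2, 3.85 (3.31 to 4.46) with 3 to 5 and 4.51 (3.89 to 5.20) with 6 or more (90 cells). Of those 90 cells, 5 belonged to the 14 rich in the interferon list, and 1 of the 5 had 331 class II UMIs. For 3 or more class II UMIs against 0, the immunosubunit ratio was 1.23 (1.10 to 1.38) and that of the MHC class I list 1.24 (1.21 to 1.28). Without the 14 cells these were 1.15 (1.02 to 1.30) and 1.21 (1.18 to 1.248). The constitutive catalytic genes were also higher at 3 or more class II UMIs, with a ratio of 1.11 (1.02 to 1.22). The immunosubunit share of catalytic UMIs was 39.4% (36.2% to 42.6%) there and 37.0% (35.6% to 38.4%) with none. The cells with 3 or more were deeper (median 3934 UMIs against 3103), and within quartiles of UMIs per cell the immunosubunit ratio was 1.19. In the cells with 3 or more class II UMIs the B or plasma cell markers had a ratio of 2.31 (1.34 to 3.86), the dendritic cell markers 2.32 (0.989 to 5.03) and the epithelial markers 1.19 (1.06 to 1.34). Monocyte or interstitial macrophage markers had 0.848 (0.370 to 1.72), granulocyte markers 0.885 (0.614 to 1.24) and AM markers 1.09 (1.07 to 1.11). The part of these lists in the result was not tested. For 6 or more against 0, the immunosubunit ratio went from 1.33 (1.14 to 1.55) to 1.14 (0.960 to 1.35) without the 14 cells. That of Psmb9 went from 1.68 (1.18 to 2.34) to 1.21 (0.784 to 1.80). The cells with 6 or more had a median of 4440.5 UMIs. With the 14 cells kept, the whole family had a ratio of 1.11 (1.06 to 1.15) there, or 1.04 within quartiles of UMIs per cell.

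**Figure D4:**
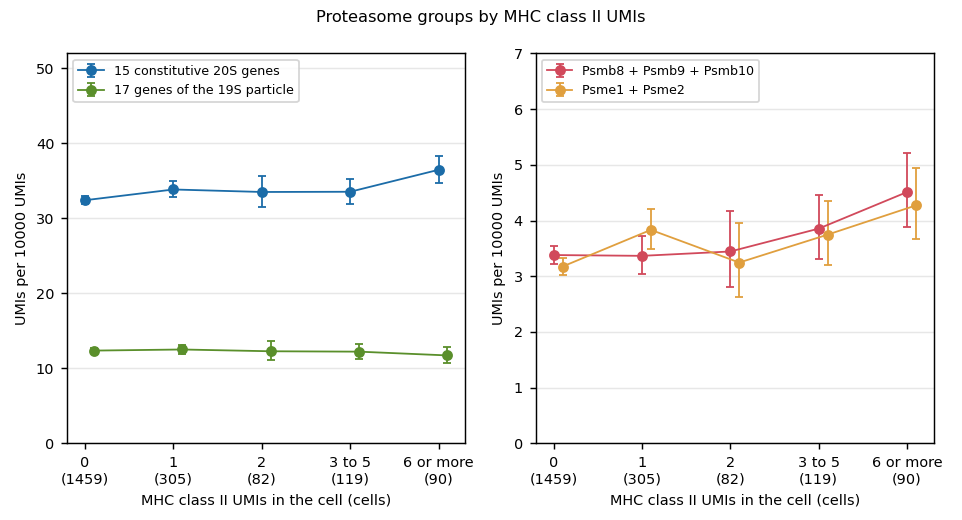
UMIs per 10000 of the constitutive core and 19S genes (left) and of the immunosubunits and the PA28 genes (right) in cells grouped by their MHC class II UMIs, with the number of cells in brackets; bars are exact 95% Poisson intervals. The 19S genes lie between 11.7 and 12.5 throughout, and the immunosubunits go from 3.38 in cells with none to 4.51 in the 90 cells with 6 or more.

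Cell cycle was examined by calling the 103 cells (5%) with the most UMIs per 10000 of 94 S and G2/M genes cell cycle high. This is a range of a score and not a cell type, with 69.2 UMIs per 10000 in the lowest cell inside, 67.8 in the highest outside and 26 cells within 20% of the limit. Proteasome genes as a whole were at 55.0 UMIs per 10000 in these cells and 54.5 in the others, a ratio of 1.01 (0.968 to 1.05), and the cell cycle high cells were deeper (median 4281 UMIs against 3237), and within quartiles of UMIs per cell the ratio was 0.959. Groups of subunits parted somewhat. The 19S base had a ratio of 1.15 (1.03 to 1.29), the lid 1.00 (0.884 to 1.13), the alpha genes 1.00 (0.932 to 1.08), the constitutive catalytic genes 0.862 (0.752 to 0.983) and the immunosubunits 0.909 (0.763 to 1.07). The immunosubunit ratio was 0.766 (0.624 to 0.931) in cells with at most 5% mitochondrial UMIs. It was 0.853 (0.723 to 0.9995) when cycling cells were called by UMIs of at least 3 different cycle markers. Both intervals leave out 1. The interval included 1 in cells with at least 2000 UMIs (0.860, 0.711 to 1.03) and without cells holding markers of other cell types (0.970, 0.795 to 1.17). It also included 1 for the highest 3% (0.887, 0.711 to 1.10) and 10% of cells (0.922, 0.808 to 1.05). With the score set after thinning to 2000 UMIs it did so too (0.907, 0.754 to 1.08). The immunosubunit share of catalytic UMIs was 38.2% (33.3% to 43.3%) in cell cycle high cells and 36.9% (35.7% to 38.1%) in the others.

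Psmb5 was the 1 gene of the 28 past 1.5-fold, at 1.56 UMIs per 10000 in cell cycle high cells and 2.38 in the others, a ratio of 0.654 (0.508 to 0.829). Over all genes, 7.07% of 2079 were lower and 6.78% higher by that fold, so 1 of 28 is below the background share. Of the cell cycle high cells, 90 had at least as many G2/M as S phase UMIs. Their Psmb5 ratio was 0.697 (0.537 to 0.890), inside the fold limit. It was 0.321 (0.0874 to 0.824) on 4 UMIs in the 13 others. Within quartiles of UMIs per cell, the Psmb5 ratio was 0.616 in all cell cycle high cells and 0.654, past the fold limit, in the 90. The call past the fold thus rested on the 13 cells only where depth was not accounted for. The other constitutive catalytic genes had ratios of 0.923 (0.755 to 1.12) for Psmb6 and 1.21 (0.896 to 1.60) for Psmb7, and the differences between the genes were not tested. Psmc6, a base ATPase, was just inside the limit on the other side, at 1.18 against 0.791 (ratio 1.497, 1.11 to 1.98), and Psmd2, a base scaffold, had 1.38 (1.04 to 1.79). Of the immunosubunits, Psmb10 had 0.742 (0.524 to 1.02), Psmb8 0.906 (0.703 to 1.15) and Psmb9, with 460 UMIs, 1.22 (0.839 to 1.73). The MHC class I list had a ratio of 0.857 (0.824 to 0.891), AM markers one of 0.779 (0.762 to 0.796) and Malat1 one of 0.656 (0.637 to 0.675). Within the MHC class I list, B2m had 0.963 (0.911 to 1.02), while the chaperones Pdia3, Calr and Canx were lower by at least 1.5-fold. The part of these differences in the ratios of the proteasome genes was not tested.

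**Figure D5:**
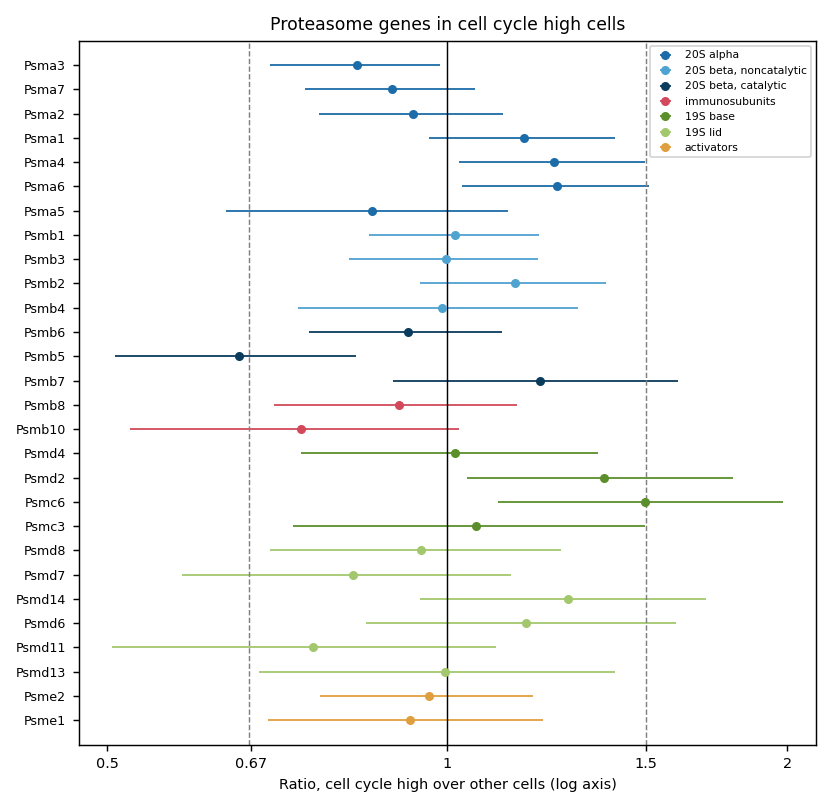
Ratio of the level in the 103 cell cycle high cells over that in the 1952 other cells for the 28 proteasome genes with at least 500 UMIs, on a log axis and coloured by subunit group; bars are exact 95% conditional intervals and dashed lines mark 1.5-fold. Psmb5 at 0.654 is the 1 gene outside the lines, and Psmc6 at 1.497 is next to the upper one.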

How the data were processed

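The mouse 3′ single-cell library was aligned to mm10 by the authors with Cell Ranger, and the files hold 2 deposited tables made in Seurat. The authors deposited the natural log of 1 plus UMIs per 10000 UMIs of the cell, and a scaled score per gene after regression on UMIs per cell and mitochondrial content. UMI counts were recovered from the deposited log values, since 100% of values were whole multiples (within 0.01 UMIs) of the step of their cell. Levels are UMIs pooled over cells, per 10000. Doublets were not called here. The study's methods state a limit of 5% mitochondrial UMIs, and 384 of the 2055 cells exceed it, so all cells were kept for the values given and those cells were left out in an alternative. Ribosomal protein and rRNA genes were removed by the authors and are not in the UMI totals. Mitochondrial share had a median of 3.21%.

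Genes with at least 500 UMIs (2087) entered counts past the fold of 1.5 and the summaries of correlations, and single ratios are also given for genes below. Named genes were Psmb5 to Psmb10, Psme1 to Psme4, the highest and lowest of each subunit group, genes past the fold, and the 5 genes most like the summed family or immunosubunits. Other genes named with values (such as Psmd2, Psmd14, Psma1 and Psma2, and Pomp, Tap1 and the interferon genes of the 14 cells) were chosen after their values were seen. The genes, lists and comparisons were chosen with earlier results of these data known. Thinning drew 2000 UMIs per cell and left out 299 shallower cells. Alternatives changed the cells kept, the class limits, the values correlated and the gene minimum. Residual fits on depth, ratios within quartiles of UMIs per cell and values without the 14 interferon-rich cells were added after seeing the data. Steps were tested on simulated counts. Promoter windows were searched on both strands, and positions came from GENCODE M21 and upstream sequence from RefSeq (37 of 44 genes matched). Python 3.11.15, numpy 2.4.6, scipy 1.17.1 and pandas 2.3.3 were used.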

Additional observations from a re-analysis of the deposited data

How the results depend on the processing

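Of 75 recomputed values for 9 results, 59 stayed inside the 95% counting interval of the value given (or within 1.5 times, for correlations and counts of genes), and 16 did not. The immunosubunit share of catalytic UMIs stayed between 36.4% and 37.3% in all 6 alternatives. The summed level of 54.5 UMIs per 10000 became 55.8 in cells with at most 5% mitochondrial UMIs, 55.2 in cells with at least 2000 UMIs, 53.4 without cells holding markers of other cell types and 52.3 as a mean over cells. The median pairwise r of 0.026 became 0.014 on the log of thinned UMIs, 0.015 with a minimum of 200 UMIs and 0.066 with a minimum of 1000. The immunosubunit ratio by class II, 1.09 with a lower bound at 1.00, became 1.23 at 3 or more UMIs, and its interval included 1 in cells with at most 5% mitochondrial UMIs (1.07, 0.982 to 1.18), without cells holding markers of other cell types (1.07, 0.970 to 1.19), with Cd74 counted (1.08, 0.996 to 1.17) and without the 14 cells (1.06, 0.970 to 1.15). Within quartiles of UMIs per cell, the summed ratio became 1.02 by class II and 0.959 by cell cycle, and with at least 3 cycle markers the latter was 1.06. With the limit lowered from 1.5-fold to a 25% difference, 1 gene passed by class II and 7 by cell cycle. At 1.5-fold by cell cycle, 2 passed in cells with at least 2000 UMIs, 2 with the score set after thinning and 0 with the highest 10% of cells. The share of all genes past the limit is not given for these settings, so these counts are not read as results about the family. The causes were not tested, beyond that a lower gene minimum or fold admits other genes.

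Depth limits single genes, as those under 500 UMIs (16 of 44) entered no ratio count, and differences within the intervals are not detectable here. With 1 library, no spread between mice is known.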

Other observations

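The genes that assemble, regulate or feed the proteasome were also present. Of a list of 30 such genes, 27 were listed, with 56.7 UMIs per 10000 in all, led by Ubb (15.4), a polyubiquitin gene, and Shfm1 (12.8), the small lid subunit whose symbol the rule for subunits does not catch. Pomp, the chaperone that matures the core, was at 3.51 and seen in 66.2% of cells, a level close to that of Psma7 (3.44). Nfe2l1, the factor that drives subunit genes when the proteasome is blocked, was at 0.554, and Nfe2l2 at 2.23. The list had a ratio of 1.03 (1.01 to 1.05) by MHC class II detection and 0.973 (0.934 to 1.01) by cell cycle, and r = 0.298 with the summed family over 2055 cells. None of the 12 genes of the list with at least 500 UMIs differed by 1.5-fold by class II (0.144% of all genes were higher), and 1 (Ubqln1, lower) did by cell cycle, where 7.07% of all genes were lower.

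The 514 cells (25% of all) with the most UMIs per 10000 of 18 chemokine and immediate-early genes had fewer proteasome transcripts. The ratio against the other cells was 0.927 (0.906 to 0.949) for the whole family, 0.819 (0.743 to 0.901) for the immunosubunits, 0.930 (0.902 to 0.958) for the constitutive core and 0.954 (0.908 to 1.00) for the 19S particle. In the same cells the dendritic cell markers had a ratio of 2.99 (1.47 to 6.09), on 18 UMIs inside and 18 outside. The granulocyte markers had 1.33 (1.04 to 1.67) and the interferon list 1.16 (1.06 to 1.28). Monocyte or interstitial macrophage markers had 0.717 (0.403 to 1.21), epithelial markers 1.07 (0.977 to 1.17) and AM markers 1.02 (1.01 to 1.03). B or plasma cell markers, mostly Jchain of 1 cell, had 0.0587 (0.0357 to 0.0911). The part of these lists in the result was not tested. The immunosubunit share of catalytic UMIs was 34.1% (31.8% to 36.5%) there and 37.9% (36.5% to 39.2%) in the other cells, with near equal depth (median 3283 UMIs against 3278). In the MHC class I list all 12 genes were listed, led by B2m (31.5 UMIs per 10000), H2-D1 (12.1) and H2-K1 (7.05), and Tap1, which overlaps Psmb9, had 86 UMIs. In cell cycle high cells 3 of the 7 genes of this list with at least 500 UMIs, the chaperones Pdia3, Calr and Canx, were lower by at least 1.5-fold, against 7.07% of all genes.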
